A study of Homo sapiens with 24 samples.

Results

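NRF2 antioxidant response genes were followed in HCT-116 cells, a human colorectal carcinoma line, under butyrate and under a doxycycline-inducible block of Wnt signaling. The members were NFE2L2, KEAP1, NQO1, HMOX1, GCLM, GCLC, TXNRD1, SRXN1 and GSR, chosen by name as the regulator pair and well-known targets of the pathway. These 9 genes are measured by 10 of the 34127 non-control probes of the array, GSR by 2 of them. Of the 10 probes, 9, which cover 8 genes, passed the filter on dim probes, as did 18979 probes of 15158 genes in all.

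All cells came from a single stably transfected clone that carries a Tet repressor and a Tet-inducible, FLAG-tagged DN-Tcf4, a truncated Tcf4 that cannot bind beta-catenin and so represses Wnt target genes. The clone was left without either agent (Ctl), given 5 mM sodium butyrate (NaB), given 4 μg/ml doxycycline (Doxy), or given both (DoxyNaB). By the study's array methods doxycycline came first, and the cotreatment that followed, with butyrate or without, lasted 17.5 hr. Each of 6 experiments gave 1 array per treatment, 24 single-colour arrays in all, and the study's methods call the experiments biological replicates. Butyrate is a fermentation product of dietary fibre and an inhibitor of histone deacetylases. A single clone limits what the arrays can say about the parental line, and in a bulk culture fewer cells of a kind and less RNA per cell cannot be told apart.

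NRF2, the protein made from NFE2L2, is a transcription factor that KEAP1 holds for destruction in unstressed cells. Oxidants and electrophiles modify KEAP1, NRF2 then accumulates, pairs with small MAF proteins and binds antioxidant response elements near genes for glutathione synthesis, thioredoxin recycling, quinone reduction and haem breakdown. Much of this control acts on the NRF2 protein, which an expression array does not measure.

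The probe for NFE2L2 is shown because it was too dim to be tested, and promoter stretches are shown for the antioxidant response element core they hold. The NFE2L2 probe matches NCBI36 chr2:177803939-177803998 on the minus strand. It has 60 bases, of which 25% are G or C and 55% are A.
NFE2L2 probe: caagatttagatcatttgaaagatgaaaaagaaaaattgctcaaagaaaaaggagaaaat

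The core was searched on both strands as TGACNNNGC in the promoter windows of RefSeq (GRCh38.p14), each 300 bases long. It was present in 13.3% of 35116 windows, and the longer form TGACTCAGC, which contains the core, in 0.561%. The windows of 7 of the 9 genes could be read, 10 windows in all, and HMOX1 and GSR were not among them. The core lay in 4 of the 10 windows, from KEAP1, GCLM and TXNRD1, and the longer form in 0. The KEAP1 window at chr19:10502722-10503021 held TGACACGGC on the strand of the gene, 54 to 46 bases before the start, and TGACTAAGC on the opposite strand, 31 to 23 bases before it. In the upstream stretches below, which run 5′ to 3′ on the strand of the gene, capitals mark each core that lies wholly in the stretch. The core in GCLM is read on the opposite strand. The TXNRD1 window shown also held TGACGGAGC on the opposite strand, 8 to 0 bases before the start, which runs past the stretch and is unmarked. The other TXNRD1 window with the core held TGACAAAGC on the opposite strand, 102 to 94 bases before the start. GCLM, at chr1:93909431-93909680 on the minus strand, and TXNRD1, at chr12:104215529-104215778 on the plus strand, are shown because they moved in opposite directions under butyrate.
GCLM upstream: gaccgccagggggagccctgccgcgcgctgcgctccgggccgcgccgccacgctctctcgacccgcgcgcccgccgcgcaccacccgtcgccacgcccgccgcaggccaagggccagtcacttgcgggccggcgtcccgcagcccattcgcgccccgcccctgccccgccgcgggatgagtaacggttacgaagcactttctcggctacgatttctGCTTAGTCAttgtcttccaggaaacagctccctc
TXNRD1 upstream: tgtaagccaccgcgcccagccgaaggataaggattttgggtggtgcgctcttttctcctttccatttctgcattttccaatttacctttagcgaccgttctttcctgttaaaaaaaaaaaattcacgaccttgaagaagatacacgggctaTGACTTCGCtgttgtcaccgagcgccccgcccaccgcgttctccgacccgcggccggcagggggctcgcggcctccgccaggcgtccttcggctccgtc
A match is a description of the letters in these windows, and no match says only that the letters are not there.

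Levels are given as log2 of a probe's processed signal over the 75th percentile of that array. They compare a probe between arrays, and not a gene with another gene. On each array 52.5% to 88.1% of spots stood well above background. AXIN2, a Wnt target, was lower in DoxyNaB than in NaB by 2.53 (log2, adjusted p = 2.63e-11), and TCF7L2, the gene from which DN-Tcf4 derives, was higher by 2.96 (adjusted p = 3.65e-05). In Doxy against Ctl AXIN2 differed by -0.58 (adjusted p = 0.0029) and TCF7L2 by -0.17 (adjusted p = 0.921). Of 7 markers of epithelial colon carcinoma cells, 6 were well above background on all 24 arrays, VIL1 on 5 of them. Of the other cell types' markers, COL1A1 among 6 fibroblast genes and CD68 among 5 leukocyte genes were above background on all arrays, COL3A1 on none, and each of 3 endothelial genes on 13 to 22 arrays. On the log2 scale of the levels the summed fibroblast markers lay between -1.52 and -0.93 in Ctl and between -2.14 and 0.13 in NaB, the leukocyte markers between -1.89 and -0.86 and between -0.28 and 0.21, and the endothelial markers between -3.53 and -2.39 and between -2.48 and -0.48. The part of such signals in the results below was not tested.

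Butyrate changed the expression of most of the genes, in both directions. In NaB/Ctl, KEAP1 fell 5.99-fold and NQO1 3.26-fold while SRXN1 rose 3.27-fold, and these 3 passed a change of over 2-fold at an adjusted p under 0.01 (limma with the experiment as a block, Benjamini-Hochberg over all 18979 probes). GSR, TXNRD1, GCLC and GCLM also passed the adjusted p, with smaller changes. HMOX1 did not. Of the 8 genes tested, 3 were higher, 4 lower and 1 not past the adjusted p. Over all 15158 genes 40.6% were higher and 29% lower at this adjusted p, so a count of 7 changed of 8 lies near the 69.6% of all genes. At over 2-fold, 1 member was higher and 2 were lower, against 21% and 11.5% of all genes. The median log2 change of the members was -0.50, and that of all genes 0.17.

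Butyrate also changed most of the genes when doxycycline was present. In DoxyNaB/Doxy, a comparison that shares no array with NaB/Ctl, KEAP1 fell 5.5-fold, NQO1 3.27-fold, GSR 2.17-fold and TXNRD1 2.05-fold, and SRXN1 rose 4.13-fold. GCLC rose 1.57-fold, and GCLM and HMOX1 did not pass the adjusted p. Of the 8 genes, 6 passed against 68.4% of all genes: 2 were higher and 4 lower, against 38.1% and 30.3% of all genes. At over 2-fold, 1 was higher and 4 lower, against 18.7% and 12.5%. The median change was -0.64 for the members and 0.11 for all genes.

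**Figure D1:**
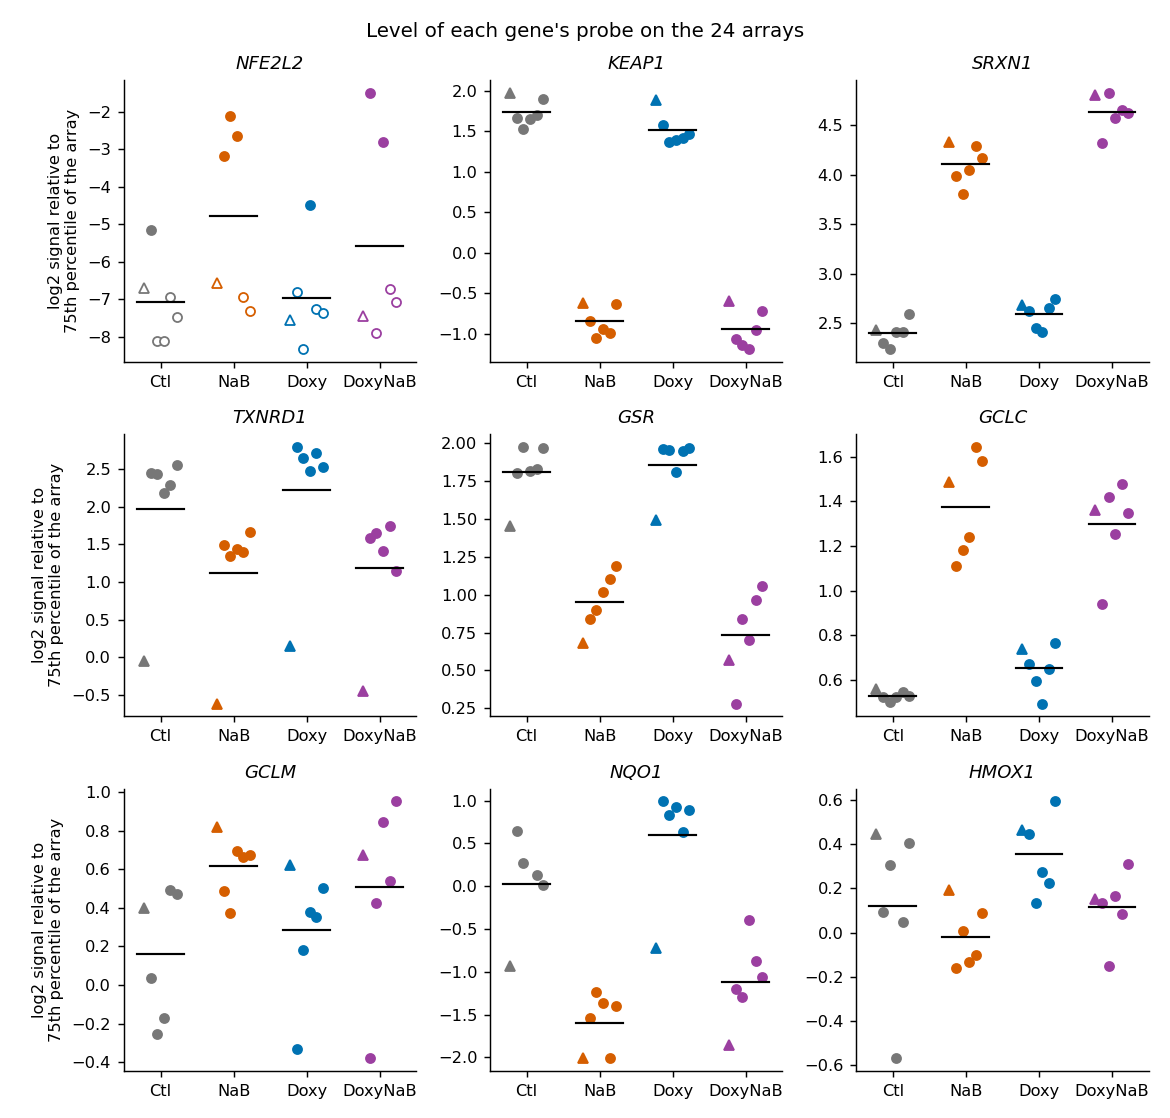
Level of each gene's probe (vertical axis, log2 signal over the array's 75th percentile) in Ctl, NaB, Doxy and DoxyNaB. Each point is 1 array, triangles are experiment 1, open points were not well above background, and the bar is the mean. KEAP1, SRXN1, GCLC and GSR separate the arrays with butyrate from those without, and the lowest TXNRD1 array of each treatment is that of experiment 1.

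Of the regulator pair, NFE2L2 could not be compared. Its probe was well above background on 7 of 24 arrays, 1 in Ctl, 3 in NaB, 1 in Doxy and 2 in DoxyNaB, and in no treatment on all 6. All 7 belong to experiments 2 to 4, which were scanned together. The highest levels were -2.10 in NaB of experiment 3 and -1.49 in DoxyNaB of experiment 2, the arrays whose negative controls were also the brightest, with a net signal of 161 and 249 against 48.4 to 115 on the others. No fold is given for NFE2L2.

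KEAP1, the adaptor that presents NRF2 to a CUL3 ubiquitin ligase, had the largest change of the members. Its probe lies at NCBI36 chr19:10458262-10458321, is printed in 10 spots and was above background on all arrays. In Ctl the level ran from 1.53 through a median of 1.69 to 1.98, and in NaB from -1.05 through -0.89 to -0.61. In Doxy it ran from 1.37 through 1.44 to 1.89, and in DoxyNaB from -1.19 through -1.005 to -0.59. Every array with butyrate thus lay below every array without it, by more than 1 unit. What share of all genes separates the arrays in this way was not counted, here or for the genes below. The log2 change was -2.58 in NaB/Ctl (95% CI -2.71 to -2.46, adjusted p = 7.04e-16) and -2.46 in DoxyNaB/Doxy (95% CI -2.59 to -2.33, adjusted p = 8.2e-16). In the 6 experiments the NaB/Ctl difference ran from -2.70 to -2.51. By size of fall KEAP1 stood at place 97 of 15158 genes in NaB/Ctl and 165 in DoxyNaB/Doxy.

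SRXN1, sulfiredoxin, reduces over-oxidised peroxiredoxins and is among the usual reporters of NRF2 activity. Its probe (NCBI36 chr20:575563-575622) ran in Ctl from 2.24 through 2.41 to 2.60 and in NaB from 3.81 through 4.11 to 4.33. In Doxy it ran from 2.41 through 2.64 to 2.74, and in DoxyNaB from 4.32 through 4.64 to 4.83. The groups with and without butyrate did not overlap, and DoxyNaB overlapped NaB only at its lower end. The log2 change was 1.71 in NaB/Ctl (SE 0.0821, adjusted p = 2.31e-12) and 2.05 in DoxyNaB/Doxy (SE 0.0821, adjusted p = 2e-13). SRXN1 thus rose while KEAP1 fell in each of the 6 experiments of both comparisons.

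NQO1, which reduces quinones by a 2-electron step and is perhaps the best-known NRF2 target, moved opposite to SRXN1. Its probe lies at NCBI36 chr16:68301775-68301834. In 5 Ctl arrays the level ran from -0.93 through 0.14 to 0.64, since the spot of experiment 4 carries an outlier flag and was left out, and in NaB from -2.01 through -1.47 to -1.24. In Doxy it ran from -0.72 through 0.87 to 0.99 and in DoxyNaB from -1.86 through -1.13 to -0.40. NaB lay below Ctl on every array, whereas Doxy and DoxyNaB overlapped through the low Doxy array of experiment 1. The log2 change was -1.70 in NaB/Ctl (adjusted p = 8.47e-08, lower in 5 of 5 experiments) and -1.71 in DoxyNaB/Doxy (adjusted p = 7.02e-08, lower in 6 of 6). Keeping that Ctl spot gave -1.69 in NaB/Ctl.

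The genes that recycle thioredoxin and glutathione fell. GSR, glutathione reductase, returns oxidised glutathione to its reduced form and is encoded on chromosome 8. By the probe of higher mean level it ran from 1.46 through 1.82 to 1.98 in Ctl and from 0.68 through 0.96 to 1.19 in NaB. It ran in Doxy from 1.49 through 1.95 to 1.97 and in DoxyNaB from 0.28 through 0.77 to 1.06. By this probe the arrays with butyrate lay below all those without it. The change was -0.85 in NaB/Ctl (adjusted p = 3.32e-08) and -1.12 in DoxyNaB/Doxy (adjusted p = 8.18e-10). The second probe gave -0.76 and -1.05, and its groups overlapped because experiment 1 was low in all treatments.

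TXNRD1, thioredoxin reductase, uses NADPH to reduce thioredoxin. Its probe (NCBI36 chr12:103257079-103257138) ran from -0.06 through 2.36 to 2.55 in Ctl and from -0.62 through 1.42 to 1.67 in NaB. It ran from 0.14 through 2.59 to 2.80 in Doxy and from -0.45 through 1.502 to 1.75 in DoxyNaB. The lowest array of each treatment is that of experiment 1, so the groups overlapped, while within each of the 6 experiments butyrate lowered the level. The within-experiment change was -0.85 in NaB/Ctl (range -1.09 to -0.56, adjusted p = 8.17e-07) and -1.03 in DoxyNaB/Doxy (range -1.38 to -0.60, adjusted p = 6.84e-08). Without the block on the experiment both changes kept their size but did not pass the adjusted p, at adjusted p = 0.151 and 0.0841. The fall in DoxyNaB/Doxy is also just past 2-fold, and it no longer passed 2-fold without experiment 6 (-0.97) or without experiment 2.

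The subunits of glutamate-cysteine ligase, the rate-limiting enzyme of glutathione synthesis, rose in NaB/Ctl by less than 2-fold, and in DoxyNaB/Doxy GCLC alone of them passed. Neither rise passed under median scaling of the arrays, where GCLC was at 0.10 and GCLM at -0.29 in NaB/Ctl. GCLC, the catalytic subunit (NCBI36 chr6:53470156-53470215), ran from 0.50 through 0.53 to 0.56 in Ctl and from 1.11 through 1.37 to 1.64 in NaB. In Doxy it ran from 0.49 through 0.66 to 0.77 and in DoxyNaB from 0.94 through 1.35 to 1.48. Arrays with and without butyrate did not overlap. The change was 0.84 in NaB/Ctl (adjusted p = 1.92e-08) and 0.65 in DoxyNaB/Doxy (adjusted p = 6.52e-07), higher in 6 of 6 experiments of each.

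GCLM, the modifier subunit (NCBI36 chr1:94125398-94125457), ran from -0.26 through 0.22 to 0.49 in Ctl and from 0.37 through 0.67 to 0.82 in NaB. In Doxy it ran from -0.33 through 0.37 to 0.62, and in DoxyNaB from -0.38 through 0.61 to 0.95. The groups overlapped in both comparisons. The change was 0.46 in NaB/Ctl (95% CI 0.17 to 0.74, adjusted p = 0.0053, higher in 6 of 6 experiments) and 0.22 in DoxyNaB/Doxy (95% CI -0.06 to 0.51, adjusted p = 0.143). Leaving out experiment 1, 3 or 4 put the NaB/Ctl value above the adjusted p of 0.01, with values from 0.38 to 0.52 over the 6 fits that each leave out an experiment and a largest adjusted p of 0.0241.

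HMOX1, haem oxygenase, which breaks haem down to biliverdin, iron and carbon monoxide, did not pass the test in either comparison. Its probe (NCBI36 chr22:34120122-34120181, 10 spots) ran from -0.57 through 0.20 to 0.45 in Ctl and from -0.16 through -0.05 to 0.19 in NaB. The Doxy arrays ran from 0.13 through 0.36 to 0.59 and in DoxyNaB from -0.15 through 0.14 to 0.31. The difference was -0.14 in NaB/Ctl (95% CI -0.37 to 0.09, adjusted p = 0.255) and -0.24 in DoxyNaB/Doxy (95% CI -0.47 to -0.01, adjusted p = 0.0575). The lowest Ctl array, that of experiment 4, made its experiment the only one in which NaB was the higher, by 0.43.

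**Figure D2:**
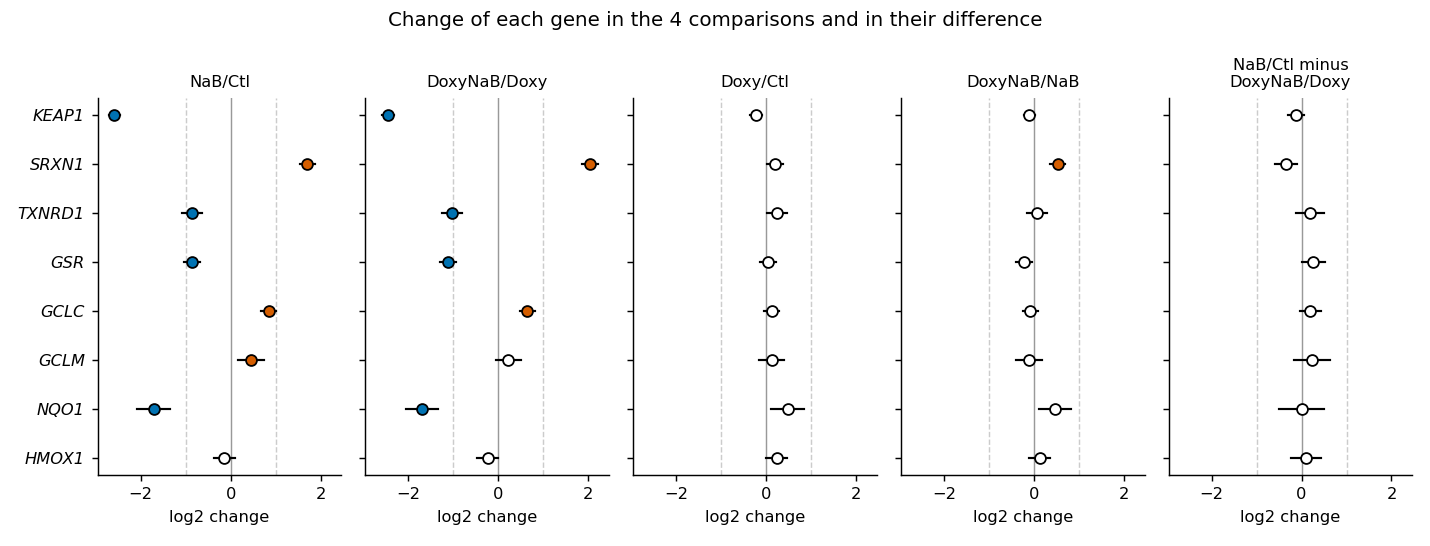
Change of each gene (horizontal axis, log2) in NaB/Ctl, DoxyNaB/Doxy, Doxy/Ctl and DoxyNaB/NaB and the difference between the 2 butyrate responses. Bars are 95% confidence intervals, filled points passed an adjusted p of 0.01 (orange higher, blue lower), and dashed lines mark 2-fold. KEAP1 and NQO1 lie beyond 2-fold below 0 and SRXN1 above it in both butyrate comparisons, and SRXN1 in DoxyNaB/NaB is the only filled point in the other panels.

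Whether the butyrate response differed with doxycycline was asked by subtracting the DoxyNaB/Doxy change from the NaB/Ctl change. None of the cells given doxycycline lacked the DN-Tcf4 construct, so the drug itself and the block of Wnt signaling cannot be told apart. Of the 8 genes, 0 passed an adjusted p of 0.01, against 1.35% of all genes. At an unadjusted p under 0.05 there were 2, and the share of all genes at that threshold was not taken. The difference was -0.34 for SRXN1 (95% CI -0.58 to -0.09, adjusted p = 0.191) and 0.27 for GSR (95% CI 0.02 to 0.51, adjusted p = 0.359). It was -0.12 for KEAP1 (95% CI -0.30 to 0.05, adjusted p = 0.628) and 0.00 for NQO1, where the interval from -0.50 to 0.51 is the widest of the members. For TXNRD1, GCLC, GCLM and HMOX1 it lay between 0.10 and 0.23, with intervals that hold 0. Such intervals leave room for differences of a size up to 0.64 in GCLM, and do not show that the responses were alike.

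Without butyrate, doxycycline changed none of the members past the test. By the study's western blot, DN-Tcf4 was minimal under doxycycline alone and high under both agents. Doxy/Ctl thus compares cells with little DN-Tcf4. In Doxy/Ctl 0 of the 8 genes passed the adjusted p, against 0.554% of all genes. At an unadjusted p under 0.05 there were 5, without a share of all genes to set beside them. NQO1 differed by 0.48 (adjusted p = 0.223, higher in 5 of 5 experiments) and KEAP1 by -0.22 (adjusted p = 0.0873, lower in 6 of 6). In DoxyNaB/NaB, where the TCF7L2 probe was higher, SRXN1 alone of the 8 passed, against 2.72% of all genes. It was higher by 0.53 (1.44-fold, 95% CI 0.36 to 0.70, adjusted p = 0.000509, higher in 6 of 6 experiments). NQO1 differed by 0.48 there too (adjusted p = 0.138, higher in 5 of 6). SRXN1 did not pass the adjusted p when only the 12 arrays compared were fitted (an unchanged 0.53, adjusted p = 0.0586), with normexp background correction (0.38, adjusted p = 0.319), with median scaling (0.63, adjusted p = 0.695), under the methods' t-test after adjustment (an unchanged 0.53, adjusted p = 0.111) and within each scan (adjusted p = 0.179 in experiments 2 to 4 and 0.232 in experiments 5 and 6).

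The scaling of the arrays sets where 0 lies when butyrate moves so many genes. The median change of all tested probes in NaB/Ctl was 0.17 under the 75th percentile and -0.58 when each array was scaled to its median after a floor of 5. Under that scaling SRXN1 rose by 0.96 (adjusted p = 0.000766), GCLC differed by 0.10 (adjusted p = 0.728) and GCLM turned to -0.29 (adjusted p = 0.265). HMOX1 became lower by 0.89 (adjusted p = 0.000238), and TXNRD1 and GSR passed 2-fold at -1.60 each. Relative to the median of all tested probes KEAP1 was at -2.75, SRXN1 at 1.54, GSR and TXNRD1 at -1.02, GCLC at 0.67, GCLM at 0.29 and HMOX1 at -0.31 under the 75th percentile. Scaling by the median uses a constant per array as well, so near-equal relative values there follow from the construction. Under quantile normalization they were -2.59 for KEAP1, 2.01 for SRXN1, -0.62 for GSR, -0.60 for TXNRD1, 1.02 for GCLC, 0.56 for GCLM and -0.09 for HMOX1. Of the calls past 2-fold over all probes 65.3% were higher under the 75th percentile, 47.7% under quantile normalization, 53.2% with normexp and 21.1% under the median. The falls of KEAP1 and NQO1 and the rise of SRXN1 kept their direction under every scaling tried.

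**Figure D3:**
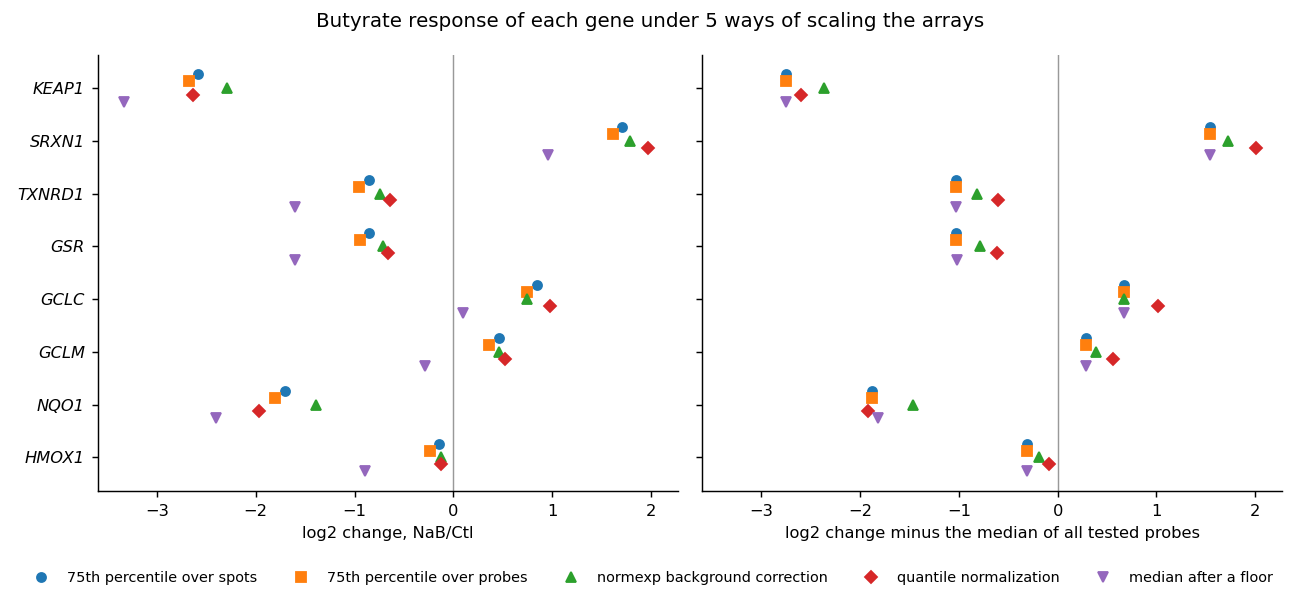
Butyrate response (NaB/Ctl, log2) of the 8 genes under 5 ways of scaling the arrays, as fitted (left) and after subtracting the median of all tested probes (right). Scaling to the median moves every gene down, GCLM across 0 to -0.29, while on the right GCLM lies above 0 and HMOX1 below 0 under all 5.

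Slides and scans were set beside the members' values. In experiments 2 to 6 the 4 arrays share a slide. In experiment 1 the arrays with butyrate are on another slide than those without, so there slide and butyrate cannot be told apart. Without experiment 1 the NaB/Ctl change was -2.58 for KEAP1, 1.67 for SRXN1 and -1.84 for NQO1. In experiments 2 to 4, which share a scan, it was -2.56, 1.64 and -1.93. In experiments 5 and 6, which share another, it was -2.61, 1.73 and -1.78, so each of these 3 changes was seen in both scans. GCLM was at 0.65 in experiments 2 to 4 and at 0.19 in experiments 5 and 6 (adjusted p = 0.259). Without the NaB array of experiment 3 and the DoxyNaB array of experiment 2, whose negative controls were brightest, no member gained or lost a 2-fold call.

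The members did not move as a block over the arrays. With levels centred within each experiment, KEAP1 correlated with GSR (Pearson r = 0.97 over 24 arrays), TXNRD1 (0.93) and, over 23 arrays, NQO1 (0.90), and SRXN1 with GCLC (r = 0.95). Between these sets r was negative, -0.98 for KEAP1 and SRXN1. GCLM correlated with SRXN1 at 0.62 and HMOX1 with NQO1 at 0.80 over 23 arrays. These values share the arrays and the strong butyrate contrast and are a description only. The genes most like a member were, for KEAP1, HDGF, POLR3E and TRIP6 (each r = 0.998), for SRXN1, SQSTM1 (0.994), ARC and JUNB (each 0.993), and for NQO1, over 23 arrays, NT5E (0.979) and FERMT1 (0.964) among the 3 nearest. For GSR they were RNF220 (0.995), CBFB and LETMD1 (each 0.992), for TXNRD1 GLUD2 (0.982), EIF4B (0.979) and ADSS2 (0.976), and for GCLC LTA4H (0.986), GOLGA7 and SERINC3 (each 0.985). An r over 0.9 was common: 19.5% of all genes reached it with KEAP1 and 21.3% with SRXN1, against 0.211% with GCLM and 0% with HMOX1, whose nearest gene was EML2 (0.836).

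Beyond the 9 genes, 82 genes of the pathway's surroundings were read in 9 lists, and 70 of them were tested. In NaB/Ctl 27 were higher and 26 lower at an adjusted p under 0.01 (over all genes 40.6% and 29%), with a median of 0.13 against 0.17. In DoxyNaB/Doxy 29 were higher and 26 lower, against 38.1% and 30.3% of all genes. In Doxy/Ctl 2 of the 70 passed the adjusted p, against 0.554%, and in DoxyNaB/NaB 3 did, against 2.72%.

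Among 12 partners and regulators of NRF2, 4 were higher and 4 lower in NaB/Ctl, against 40.6% and 29% of all genes, with a median of 0.00. SQSTM1, an autophagy receptor that binds KEAP1 and is itself an NRF2 target, rose by 1.77 (adjusted p = 7.19e-12) and by 1.88 in DoxyNaB/Doxy. RBX1, the RING subunit of the CUL3 ligase, fell by 1.33 and PALB2, which can bind KEAP1, by 1.14. CUL3 itself rose by 0.28 (adjusted p = 0.00744). Of the small MAF partners, MAFF rose by 0.67 and MAFK by 0.47, and MAFG fell by 0.40. The small changes of MAFF, MAFK, MAFG and CUL3 are of the size of the shift between scalings, as are changes of like size in the lists below.

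Of 14 tested genes of glutathione synthesis and use, 4 were higher and 7 lower in NaB/Ctl (median -0.14), against 40.6% and 29% of all genes. The transferase GSTA4 rose by 2.26, glutaredoxin GLRX by 1.40 and GSTM4 by 1.09. The membrane transferases MGST1 and MGST2 fell by 2.21 and 1.84, and SLC7A11, the cystine importer, by 2.13. Each of these 6 moved the same way in 6 of 6 experiments. GSTA4 was above background on 5 of 6 Ctl arrays, and with normexp its change was 0.91. GSTM4 lost its call under quantile normalization (0.46, adjusted p = 0.348) and under median scaling (0.34, adjusted p = 0.261), where GLRX was at 0.65 (adjusted p = 0.0155).

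Of 9 thioredoxin and peroxiredoxin genes, 2 were higher and 5 lower in NaB/Ctl (median -0.63), against 40.6% and 29% of all genes. PRDX3, the mitochondrial peroxiredoxin, fell by 1.05, TXN2, mitochondrial thioredoxin, by 0.85 and PRDX4 by 0.67. PRDX3 lost its call in 5 alternatives, among them normexp (-0.98) and quantile normalization (-0.86). PRDX1 rose by 0.46. Of 3 tested genes of superoxide and catalase, CAT rose by 0.84 and SOD2, the mitochondrial superoxide dismutase, by 0.67. Of 6 genes of NADPH supply, IDH1 rose by 1.53 (0.78 under median scaling, adjusted p = 0.00571), while ME1, malic enzyme, fell by 1.15 and TKT by 0.51. ME1 missed the adjusted p of 0.01 without the block (adjusted p = 0.0108) and in experiments 2 to 4 alone (-0.82, adjusted p = 0.021).

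Of 10 tested genes of quinone, carbonyl and drug metabolism, 7 were higher and 0 lower in NaB/Ctl, against 40.6% and 29% of all genes, with a median of 0.99 against 0.17 for all genes. The aldo-keto reductases AKR1C3 and AKR1C1 rose by 4.90 (adjusted p = 4.22e-14) and 3.38 (adjusted p = 3.38e-09). Both were above background on all 6 NaB arrays but on 4 and 3 of 6 Ctl arrays. They thus passed the filter through arrays other than Ctl, and the size of the fold is uncertain. The AKR1C genes are near-identical and their probes may share targets. AKR1C2, ALDH1A1, CBR1 and UGT1A6 of this list were not tested, so the count and the median describe only genes that passed the filter. PTGR1, prostaglandin reductase, rose by 1.21, and under median scaling was at 0.46 (adjusted p = 0.065). The changes in DoxyNaB/Doxy were 4.74, 3.30 and 0.95.

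Of 4 tested efflux transporters all 4 were lower in NaB/Ctl, as in DoxyNaB/Doxy, against 29% and 30.3% of all genes. ABCC2, which exports glutathione conjugates, fell by 3.18 (adjusted p = 3.1e-13), ABCC3 by 2.00 and ABCC4 by 0.77. Of 7 tested genes of haem and iron, 4 were higher and 1 lower in NaB/Ctl, against 40.6% and 29% of all genes. The biliverdin reductases BLVRB and BLVRA, which act after haem oxygenase, rose by 0.96 and 0.71, the transferrin receptor TFRC by 0.94, and ferrochelatase FECH fell by 0.35. Of 5 other targets, OSGIN1 rose by 0.91 and SESN2 by 0.76, and SLC6A9, TRIM16L and PIR fell by 3.41, 1.33 and 0.93. Under median scaling SESN2 was at 0.006 (adjusted p = 0.979). SLC6A9, a glycine transporter, was above background on 1 of 6 NaB arrays, so its fall has an uncertain size, and with normexp it was -1.58.

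**Figure D4:**
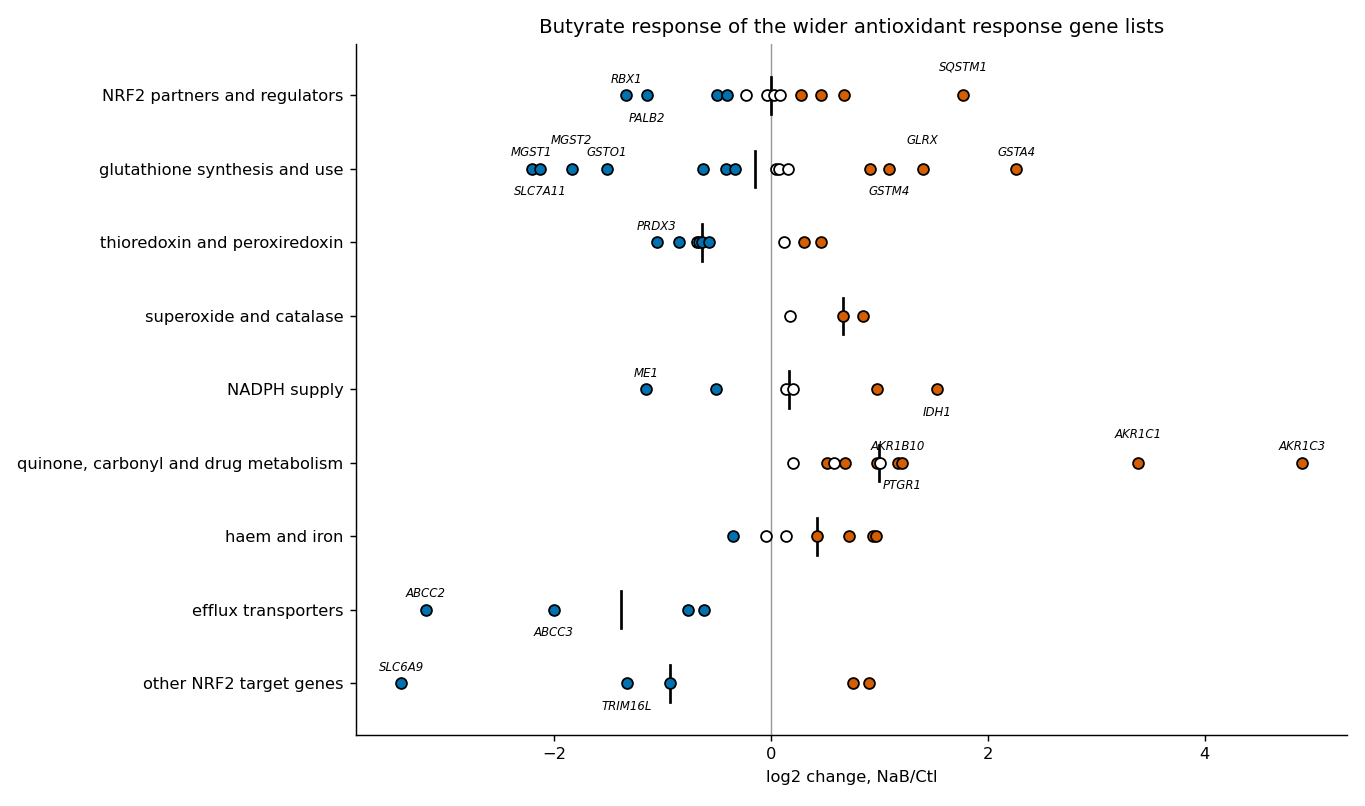
Change in NaB/Ctl (horizontal axis, log2) of the 70 tested genes of the 9 lists. Filled points passed an adjusted p of 0.01 (orange higher, blue lower), vertical bars are list medians, and genes past 2-fold are named. All 4 efflux transporters lie below 0, and quinone, carbonyl and drug metabolism has its 7 filled points above 0.

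The butyrate response of 3 of the 70 listed genes differed with doxycycline at an adjusted p under 0.01, against 1.35% of all genes. SLC7A11 fell by 2.13 in NaB/Ctl and fell by 4.02 in DoxyNaB/Doxy, a difference of 1.89 (95% CI 1.19 to 2.60, adjusted p = 0.00305). With normexp these changes were -1.60 and -2.77 and the difference 1.17 (adjusted p = 0.12), so their size is uncertain. SLC7A11 was also higher by 1.35 in Doxy than in Ctl (adjusted p = 0.00551). This Doxy/Ctl difference did not pass in 13 alternatives. Among them were leaving out any of experiments 2 to 6 (adjusted p up to 0.0548), quantile normalization (adjusted p = 0.441) and median scaling (adjusted p = 0.28). BACH1, a repressor that competes with NRF2 for antioxidant response elements, was at -0.04 in NaB/Ctl (adjusted p = 0.657) and fell by 0.61 in DoxyNaB/Doxy (adjusted p = 4.65e-07), a difference of 0.57 (adjusted p = 0.0032). SESN2, sestrin 2, a stress-induced inhibitor of mTORC1, rose by 0.76 in NaB/Ctl and was at 0.09 in DoxyNaB/Doxy (adjusted p = 0.356), a difference of 0.67 (adjusted p = 0.00458). SESN2 was also higher by 0.68 in Doxy than in Ctl (adjusted p = 0.00028). This passed in the 6 fits that each leave out an experiment, with a largest adjusted p of 0.00873. It did not pass with normexp (0.48, adjusted p = 0.0882), with median scaling (0.595) or without the block (adjusted p = 0.0142). Nor did it pass in experiments 2 to 4 (adjusted p = 0.134) or 5 and 6 (adjusted p = 0.0692). The sign of each difference of responses was the same in 6 of 6 experiments. In 12 or 13 of the 21 or 22 alternatives these differences did not pass the adjusted p, with normexp, median scaling and the methods' adjusted t-test among them.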

How the data were processed

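Single-colour expression arrays of 24 cultures were read from the deposited scanner output. Per the file headers, the intensity values are processed signals that Agilent Feature Extraction 9.5.3.1 had background-corrected, and the authors deposited 44495 spots per array, with coordinates of NCBI36. Control spots were dropped, as were those flagged as outliers, each array was divided by its 75th percentile (a signal of 380.2 to 1323), log2 was taken and the spots of a probe were averaged. Array data carry no read depth, and 6 arrays per treatment limit the precision.

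Probes entered the test where some treatment had all 6 of its arrays well above background. The fit used limma 3.58.1 (R 4.3.3) on treatment and experiment over 24 arrays, with Benjamini-Hochberg adjustment over all tested probes. A call needed over 2-fold and an adjusted p under 0.01, and a difference of responses the adjusted p alone. A gene with several probes was read from the one of highest mean level. Named genes were the members, the listed genes with the 3 largest changes each way past the threshold in NaB/Ctl, genes whose response differed, and the 3 most correlated genes; further list genes were named after their values were seen. The members and lists were chosen with earlier results of these data known. The scripts were tested on simulated data, and plots were made with matplotlib 3.10.9 in Python 3.11.15.

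The experiment was kept as the pairing because the study's methods name a paired test and 5 of 6 experiments lie on 1 slide each. Deviations of same-experiment arrays correlated at -0.217 to 0.851 (median 0.598), with 1 of 36 pairs under 0.1. The alternatives were other background corrections, scalings, filters, blocks and folds, the methods' paired test, each scan alone, and each experiment left out. Promoter sequences came from RefSeq.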

Additional observations from a re-analysis of the deposited data

Results flagged for a closer look

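Levels of a gene on 1 array stood far from the other arrays of its treatment in 11 of 40 groups, where chance gives about 1 in 20, and all 11 are arrays of experiment 1. TXNRD1 was low there in every treatment, at -0.058 in Ctl, -0.62 in NaB, 0.143 in Doxy and -0.455 in DoxyNaB. The GSR probe of lower mean level was low in every treatment, at 0.813 in Ctl, 0.161 in NaB, 0.835 in Doxy and -0.042 in DoxyNaB. The other GSR probe was low at 1.455 in Ctl and 1.491 in Doxy, and NQO1 at -0.721 in Doxy. The cause was not tested.

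The butyrate response differed between cells without and with doxycycline in 3 genes by the interaction term. The difference was 1.894 for SLC7A11, 0.57 for BACH1 and 0.666 for SESN2.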

How the results depend on the processing

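The count of members past 2-fold in NaB/Ctl was 3 and became 6 with a fold of 1.5, and that in DoxyNaB/Doxy was 5 and became 3 with quantile normalization. Leaving out an experiment gave 3 to 3 in NaB/Ctl, 4 to 5 in DoxyNaB/Doxy and 0 to 0 in the other comparisons. Without the replicate block TXNRD1 did not pass the adjusted p, at adjusted p = 0.151 in NaB/Ctl and 0.0841 in DoxyNaB/Doxy, where the count of members past 2-fold was 4, and GCLM in NaB/Ctl had an adjusted p of 0.0442. Over all probes 6013 were called in NaB/Ctl, and 3001 with normexp. The difference of responses was called for 235 probes, and for 43 with normexp, 9 with median scaling and 85 without the block. Of the members' values under alternatives 841 kept their direction and their status as called or not called, 7 lost the call, 3 gained it and 29 changed sign. Of the listed genes' values these counts were 959, 77, 2 and 6. A call here is over 2-fold with the adjusted p, and the adjusted p alone for the difference of responses. A value never past 2-fold thus counts as kept even where it lost the adjusted p, as GCLC did in NaB/Ctl under median scaling (adjusted p = 0.728). Values not called in the main fit are counted too. The cause was not tested.

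With median scaling GCLM was -0.291 in NaB/Ctl and -0.335 in DoxyNaB/Doxy, SESN2 -0.469 in DoxyNaB/Doxy, GSR -0.038 in Doxy/Ctl, GCLC 0.031 and KEAP1 0.009 in DoxyNaB/NaB, and the difference of responses -0.091 for HMOX1, -0.13 for NQO1 and -0.009 for TXNRD1. With normexp KEAP1 was 0.041 and TXNRD1 -0.081 in DoxyNaB/NaB, and NQO1 -0.053 in the difference. With quantile normalization BACH1 was 0.024 in NaB/Ctl and NQO1 -0.075 in the difference. In experiments 5 and 6 BACH1 was 0.027 in NaB/Ctl, GCLM -0.053 in Doxy/Ctl and 0.074 in DoxyNaB/NaB, TXNRD1 -0.085 in DoxyNaB/NaB, and the difference -0.128 for GCLM, -0.022 for HMOX1 and -0.047 for NQO1. In experiments 2 to 4 GCLC was 0.027 in DoxyNaB/NaB, and the difference 0.014 for KEAP1 and -0.053 for NQO1. Without the 2 butyrate arrays of brightest negative controls BACH1 was 0.007 in NaB/Ctl, GCLM 0.008 in DoxyNaB/NaB and NQO1 -0.144 in the difference. With the slide as block NQO1 was -0.013 in the difference. With the percentile over probes, an alternative chosen after seeing the data as was keeping the outlier spots, SESN2 was -0.001 in DoxyNaB/Doxy and NQO1 -0.001 in the difference. Without experiment 3 BACH1 was 0.001 in NaB/Ctl, without experiment 2 GCLM was 0.041 in DoxyNaB/NaB, and without experiments 1, 3 and 6 in turn NQO1 was -0.018, -0.121 and -0.118 in the difference. Over the 6 fits that leave out an experiment, the values ran from -0.077 to 0.001 for BACH1 in NaB/Ctl, from -0.187 to 0.041 for GCLM in DoxyNaB/NaB and from -0.121 to 0.134 for NQO1 in the difference.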
